A study of Rattus norvegicus with 24 samples.

Results

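A set of 40 genes, of 30560 gene identifiers counted, gained reads in the lungs of newborn rats given dexamethasone and stayed within a narrow band of vehicle both in the livers of the same treatment and in the lungs of pups given a second steroid. They were chosen by their measured values. Gene counts were divided by the total of gene counts in their library and scaled to the customary common total (CPM), then averaged over the 4 libraries of a group, and a fold is the drug mean plus 0.5 CPM over the vehicle mean plus 0.5 CPM. A member had a mean of at least 10 CPM in dexamethasone lung and a dexamethasone fold of at least 3 in lung, both in replicates 1 and 2 and in replicates 3 and 4. Its fold for desisobutyryl ciclesonide in lung and its fold for dexamethasone in liver both lay between 0.667 and 1.5. Of the 10224 identifiers at 10 CPM or more in dexamethasone lung, 329 passed the fold limit in both pairs of replicates, and the 40 members were 12.2% of those 329.

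Wild-type (WT) Sprague Dawley pups, nursed by their mothers, received 5 daily subcutaneous injections starting on postnatal day 1, and whole lung and liver were snap frozen on postnatal day 6, 24 hours after the last injection. The groups were dexamethasone at 0.1 mg/kg, desisobutyryl ciclesonide at 1.25 mg/kg and vehicle, which was 2.5% ethanol, with 4 libraries for each of them in lung and in liver. Poly(A) RNA of each tissue was sequenced from directional libraries. The labels number the replicates but give no litter or sex, so the p-values measure the spread between these samples, and the steroids were given at different doses and are therefore not set against each other at a matched dose.

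Dexamethasone is a synthetic glucocorticoid. It binds the glucocorticoid receptor, a transcription factor that moves into the nucleus with its ligand, binds DNA, and raises or lowers transcription of target genes that differ widely between cell types. In the newborn lung glucocorticoids thin the walls between airspaces and restrain the formation of new septa, and in the liver they are known for inducing enzymes of glucose and amino acid metabolism. Desisobutyryl ciclesonide is the active form of the inhaled steroid ciclesonide, released from it by esterases, and binds the same receptor.

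The deposited tables carry Ensembl identifiers without symbols, and 0 of the 30560 could be paired with the 47357 genes of the rat gene table at hand. The members are therefore given by identifier, or by their rank from 1 to 40 in order of lung dexamethasone fold, and no gene name, function, sequence or promoter is given for them. For the same reason the tissue labels could not be checked against lung and liver markers. CPM is not corrected for transcript length, so values are compared between samples for 1 gene and not between genes.

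Gene counts per library ran from 15839958 to 27881158 in lung and from 15397992 to 26194384 in liver. Lung dexamethasone replicates 3 and 4 stood apart: 26 genes, picked from these values because both libraries exceeded all remaining lungs by 4-fold or more, summed to 28.7, 31.8, 3034 and 9000 CPM in dexamethasone lung replicates 1 to 4 and to at most 229 CPM in any other lung library. None (0) of the 26 is a member. The files of the desisobutyryl ciclesonide libraries are numbered in a separate series from those of all other libraries, and reads that did not align were 1.08% ± 0.158 in desisobutyryl ciclesonide lung and 1.10% ± 0.258 in desisobutyryl ciclesonide liver, against 2.64% ± 0.287 in vehicle lung and 2.69% ± 0.522 in vehicle liver (SD, n = 4 each). That drug and whatever the file series stands for cannot be told apart.

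Summed over the 40 members, dexamethasone lungs held 2699, 3743, 2619 and 3289 CPM, desisobutyryl ciclesonide lungs 810.2, 815.8, 1040.1 and 1090.3 CPM, and vehicle lungs 659.0, 759.5, 741.3 and 739.4 CPM. All 4 dexamethasone lungs lay above every other lung, and all 4 desisobutyryl ciclesonide lungs lay above all 4 vehicle lungs. In liver the sums were 497.9, 570.1, 505.0 and 599.7 CPM with dexamethasone, 482.0, 625.3, 537.2 and 613.9 CPM with desisobutyryl ciclesonide, and 477.0, 477.8, 400.1 and 514.6 CPM with vehicle. The liver groups overlapped. The means were 3087 ± 529 CPM in dexamethasone lung, 939 ± 147 CPM in desisobutyryl ciclesonide lung and 725 ± 44.8 CPM in vehicle lung, and 543 ± 49.8, 565 ± 67.5 and 467 ± 48.1 CPM in dexamethasone, desisobutyryl ciclesonide and vehicle liver (SD, n = 4 each). Since the members were picked on 5 of these 6 groups, the sums describe them and were not tested. In a homogenised tissue, a change in the number of cells of a type and a change in RNA per cell cannot be told apart.

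**Figure D1:**
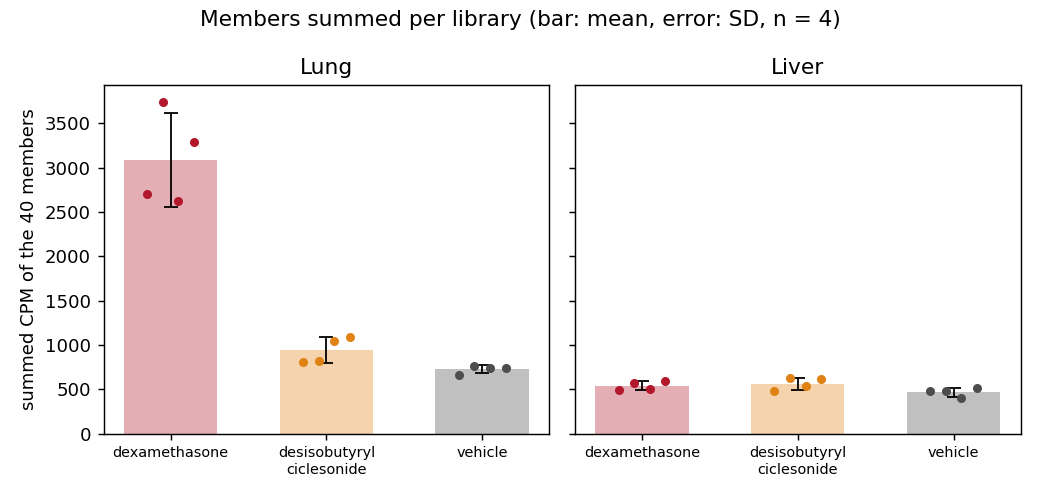
Summed CPM of the 40 members in each library of lung (left) and liver (right) by treatment, with points for libraries, bars for the group mean and error bars for the SD (n = 4). The dexamethasone lungs sit between 2619 and 3743 CPM, and no other library passes 1090.3 CPM.

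Among the members, the lung dexamethasone fold ran from 3.03 to 21.4 with a median of 4.33. The member with the highest fold, ENSRNOG00000004470, had 17.3, 21.0, 3.32 and 4.99 CPM in dexamethasone lungs, 0.0456, 0, 0.0610 and 0.189 CPM in desisobutyryl ciclesonide lungs, and 0.0944, 0, 0.0538 and 0.130 CPM in vehicle lungs. It was close to absent from every lung without dexamethasone, with 5 reads over the 4 desisobutyryl ciclesonide libraries and 6 over the 4 vehicle libraries, against 997 with dexamethasone. Next in order, ENSRNOG00000018656 had 1.72, 10.7, 13.1 and 26.8 CPM in dexamethasone lungs, 0.228, 0.129, 0.244 and 0.379 CPM in desisobutyryl ciclesonide lungs, and 0.142, 0.147, 0 and 0.390 CPM in vehicle lungs. These are the only 2 members under 0.5 CPM in all 4 vehicle lungs, and their replicates ran in opposite ways: the first was highest in dexamethasone replicates 1 and 2, and the second in replicate 4.

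In vehicle lung, 19 of the 40 members had a mean of 10 CPM or more and 7 had a mean under 2 CPM. The member with the most reads in dexamethasone lung, ranked 30, had 201.5, 380.5, 298.0 and 230.1 CPM in dexamethasone lungs, 84.4, 71.4, 122 and 131 CPM in desisobutyryl ciclesonide lungs, and 56.0, 87.4, 69.3 and 74.1 CPM in vehicle lungs. Its desisobutyryl ciclesonide and vehicle lungs overlapped, and the dexamethasone lungs stood clear of both. The steadiest member, ranked 33, had 219, 212, 217 and 197 CPM in dexamethasone lungs and 56.1, 59.5, 50.05 and 61.0 CPM in vehicle lungs, a coefficient of variation of 4.66% over the dexamethasone libraries. At the other end, the member ranked 6 had 65.4, 37.3, 137 and 315 CPM in dexamethasone lungs, 18.1, 19.4, 20.7 and 38.3 CPM in desisobutyryl ciclesonide lungs, and 8.21, 15.7, 42.2 and 13.4 CPM in vehicle lungs, a coefficient of variation of 90.0% with dexamethasone.

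That member was the only one whose dexamethasone lungs overlapped with either other group of lungs. For the other 39, all 4 dexamethasone libraries lay above all 4 vehicle libraries, and for the same 39 they lay above all 4 desisobutyryl ciclesonide libraries. Over all 16108 genes tested in lung, 20.2% had all 4 dexamethasone libraries above vehicle and 21.7% had them above desisobutyryl ciclesonide. These comparisons share the dexamethasone libraries and were used to choose the members, so the counts are descriptions. By edgeR's quasi-likelihood test with Benjamini-Hochberg adjustment all 40 members passed as higher in dexamethasone lung, where 26.9% of genes did. Without dexamethasone replicates 3 and 4 the number was 39, where 4203 of 16529 genes tested were higher. The rule asked for a 3-fold gain in these same libraries, so both outcomes were set in advance and are no support.

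**Figure D2:**
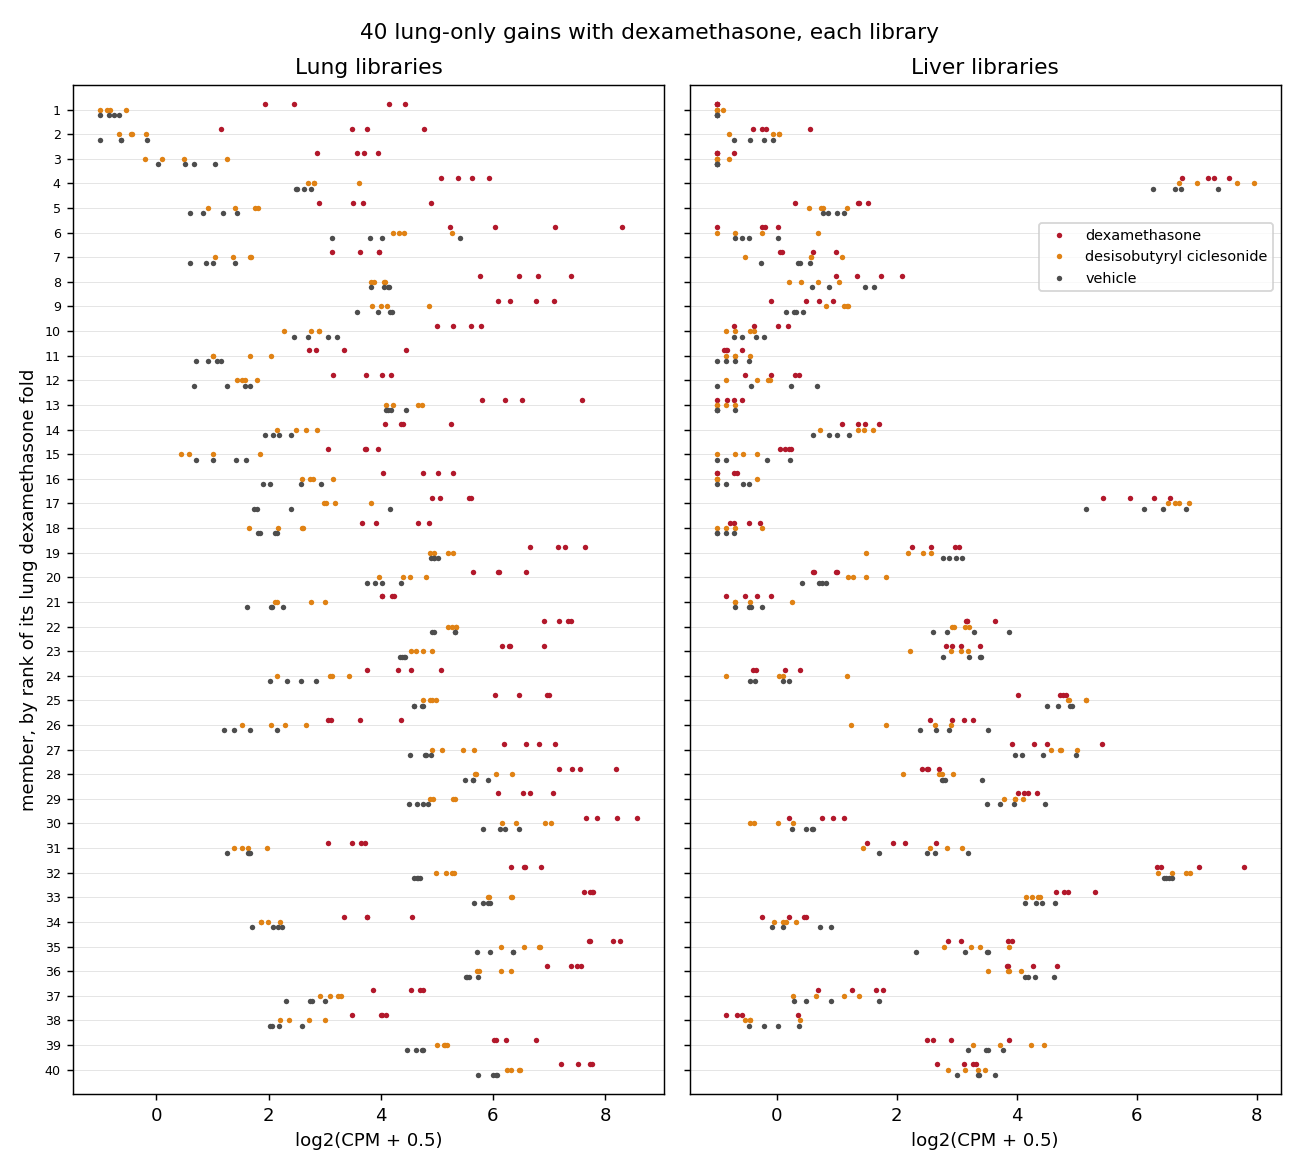
Each of the 40 members in every library, as log2(CPM + 0.5), in lung (left) and liver (right), with rows in order of lung dexamethasone fold and colours for treatment. In lung the red dexamethasone points stand to the right of the others in every row but the sixth, where the dexamethasone points overlap with the others. In liver the 3 colours intermix in many rows, but 2 of them stand apart in some, such as rows 9, 20 and 33.

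The size of the gain varied between the 2 pairs of replicates used by the rule. Folds in replicates 1 and 2 ran from 3.00 to 35.9 with a median of 4.66, and folds in replicates 3 and 4 from 3.02 to 29.4 with a median of 3.91. The fold was larger in replicates 1 and 2 for 29 members and larger in replicates 3 and 4 for 11. It differed by more than 1.5 times for 15 members, 10 of them higher in replicates 1 and 2 and 5 in replicates 3 and 4. ENSRNOG00000004470 had folds of 35.9 in replicates 1 and 2 and 7.86 in replicates 3 and 4, whereas ENSRNOG00000018656 had 10.4 and 29.4. The other 4 members with clearly larger folds in replicates 3 and 4 ranked 5, 6, 7 and 11.

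The order of the dexamethasone lungs differed between members. Replicate 2 was the highest for 23 members and replicate 4 for 13, replicate 1 was the highest for 4 and replicate 3 for 0. Replicate 3 was the lowest for 21 members and replicate 1 for 14. The median coefficient of variation across members was 27.5% in dexamethasone lung, 22.5% in desisobutyryl ciclesonide lung and 18.1% in vehicle lung.

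**Figure D3:**
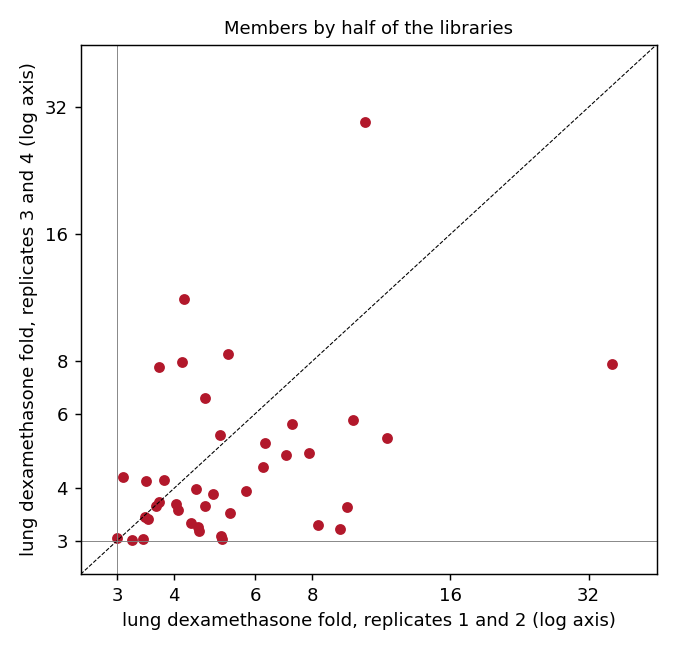
Lung dexamethasone fold of each of the 40 members in replicates 3 and 4 (vertical) against replicates 1 and 2 (horizontal), both on log axes, with thin lines at the limit of 3 and a dashed line of equality. More points lie below the dashed line (29) than above it (11), and the points at 35.9 on the horizontal and 29.4 on the vertical axis are different genes.

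The limits of the rule passed through a continuous range of values. The smaller of a member's 2 folds by replicate pair was 3.00 and 3.02 for the 2 members nearest the limit, and 2.96 and 2.94 for the nearest genes outside. Mean dexamethasone lung CPM was 10.8 and 11.0 just inside and 9.82 and 8.09 just outside. The highest lung desisobutyryl ciclesonide folds of members were 1.46 and 1.46, with 1.503 and 1.51 next outside, and the lowest were 0.894 and 0.906, with 0.545 next outside. The highest liver dexamethasone folds were 1.45 and 1.43, with 1.51 and 1.55 outside, and the lowest were 0.714 and 0.745, with 0.658 and 0.653 outside.

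Most of the 329 lung gains left the set at the desisobutyryl ciclesonide limit. Their fold for that drug in lung was above the band for 221, within it for 104 and below it for 4. In liver the dexamethasone fold was above the band for 152 of the 329, within it for 127 and below it for 50. Of the 104 within the band for desisobutyryl ciclesonide, 51 were above the liver band and 13 below it, which left the 40.

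Within the allowed band, the lung desisobutyryl ciclesonide fold of members lay mostly on the high side. It ran from 0.894 to 1.46 with a median of 1.30, and was above 1 for 35 members and below 1 for 5. Of the 5919 genes at 10 CPM or more in dexamethasone lung whose folds lay in both bands, 35.7% were above 1. The edgeR test gave 8 members as higher with desisobutyryl ciclesonide in lung, where 11.8% of all genes were higher. On its TMM scale the log2 changes of members ran from -0.11 to 0.75 with a median of 0.51, against -0.01 for all genes. A 1.5-fold change is 0.585 in log2, so some members passed it on that scale. The band was set on plain CPM plus 0.5. The vehicle libraries are shared with the dexamethasone fold and the band limited the plain fold, so nothing about the drug is read from this.

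Liver reads from the members differed widely. The rule set no level in liver, but its added 0.5 CPM lets genes with few liver reads pass the liver band easily. Split after their values were seen, 11 members had under 0.5 CPM in all 3 liver groups, 8 had 10 CPM or more in all 3, and 21 lay between. Of the 40 members, 13 had a vehicle liver mean under 0.5 CPM (32.5%), against 67 of the 289 other lung gains (23.2%) and 4.45% of all genes at 10 CPM or more in dexamethasone lung. The median member had 6.97 CPM in vehicle lung and 1.42 CPM in vehicle liver. For the other gains these medians were 9.48 and 3.46 CPM, and for all genes at that level 46.6 and 18.2 CPM. The liver band of the rule can bear on the share of members with few liver reads, so that share is a description. None of these differences between sets was tested.

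The 11 members with few liver reads had a median of 16.9 CPM in dexamethasone lung and 3.54 CPM in vehicle lung, and a median fold of 5.83. They include both members with the highest folds. ENSRNOG00000004470 had 0 reads in all dexamethasone and all vehicle livers, which allows at most 0.0401 CPM and 0.0431 CPM over each group of 4, and 1 read in 1 desisobutyryl ciclesonide liver. ENSRNOG00000018656 was counted in all livers, at 0.260, 0.972, 0.385 and 0.340 CPM with dexamethasone, 0.522, 0.460, 0.526 and 0.0764 CPM with desisobutyryl ciclesonide, and 0.359, 0.455, 0.111 and 0.230 CPM with vehicle. Its dexamethasone and vehicle livers overlapped. For genes this low the added 0.5 CPM holds the liver fold near 1 at these read numbers. Counting intervals and floors here cover counting error only.

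The 21 members between these limits had a median of 70.5 CPM in dexamethasone lung and 15.5 CPM in vehicle lung, and a median fold of 4.14. The member ranked 8 had 54.2, 167.5, 88.3 and 110.9 CPM in dexamethasone lungs and 13.7, 16.2, 17.0 and 17.3 CPM in vehicle lungs. Its livers held 1.49, 3.73, 2.01 and 2.84 CPM with dexamethasone and 2.57, 2.28, 1.00 and 1.32 CPM with vehicle, and these overlapped. The member ranked 40, the smallest fold, had 148, 211, 183 and 217 CPM in dexamethasone lungs, 75.8, 79.5, 88.5 and 87.8 CPM in desisobutyryl ciclesonide lungs, and 52.7, 66.2, 63.7 and 66.6 CPM in vehicle lungs. All 4 of its desisobutyryl ciclesonide lungs were above its vehicle lungs.

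The 8 members with many liver reads had a median of 100.1 CPM in dexamethasone lung and 25.1 CPM in vehicle lung, a median fold of 3.87, and 15.02 to 111 CPM in vehicle liver. For 3 of them, ranked 4, 17 and 32, mean CPM stayed lower in dexamethasone lung than in dexamethasone liver. These are the only 3 of the 40, against 7 whose mean was lower in vehicle lung than in vehicle liver. The member ranked 32 had 79.3, 94.5, 93.3 and 115 CPM in dexamethasone lungs and 25.6, 23.7, 24.5 and 24.96 CPM in vehicle lungs. Its livers held 84.0, 219.9, 80.7 and 130.7 CPM with dexamethasone and 95.9, 87.1, 89.2 and 92.0 CPM with vehicle, and 1 dexamethasone liver, replicate 2, stood above the rest.

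**Figure D4:**
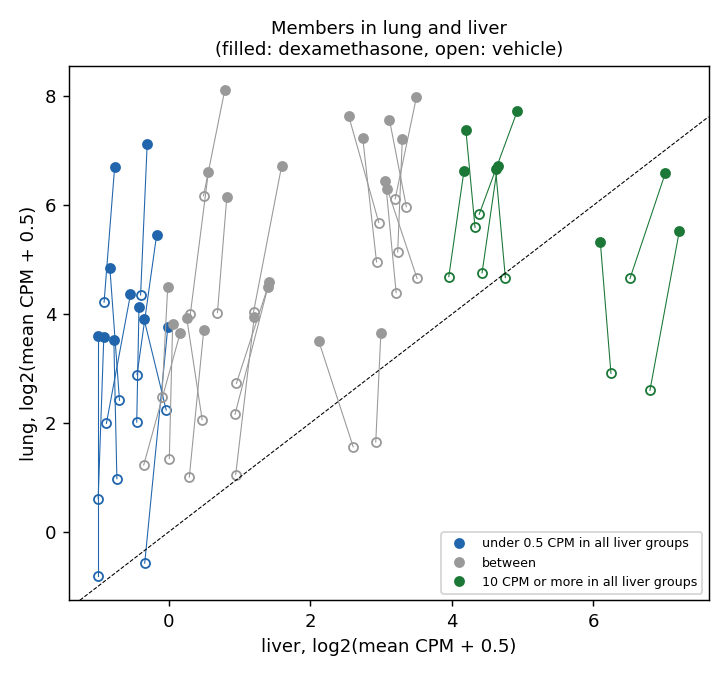
Mean lung level (vertical) against mean liver level (horizontal) of each of the 40 members, both as log2(mean CPM + 0.5), with filled points for dexamethasone, open points for vehicle and a line joining the points of 1 gene. Colours mark members under 0.5 CPM in all liver groups (11), at 10 CPM or more in all (8) and between (21), and the dashed line marks equal CPM in both tissues. Each filled point lies above the open point of its gene, and 3 green filled points remain below the dashed line.

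Lung was compared with liver in vehicle pups to describe where the members are read without a drug. The rule used these libraries and asked for 10 CPM in dexamethasone lung but for no level in liver, so members with few liver reads pass the filter on low counts only through lung, and the counts are given as a description of the members and support no lean towards lung. With edgeR on all 24 libraries and TMM scaling, all 40 members passed the filter, and 22 were higher in lung, 9 were lower in lung and 9 did not pass the test. Over all 16477 genes tested, 39.8% were higher and 31.1% lower. The median log2 difference, lung over liver, was 0.85 for members (0.84 with the 2 members that had no reads in vehicle liver set at their bound), 0.18 for all genes and 0.42 for the 289 other lung gains, of which 122 were higher and 96 lower. Whether the sets differ was not tested. The 11 members under 0.5 CPM in all livers gave 9 of the 22, and the other 29 members had 13 higher and 9 lower. With the 8 vehicle libraries alone 37 members passed the filter and 18 were higher, where 38.9% of genes were.

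ENSRNOG00000025994 had 91.3, 192, 55.5 and 74.1 CPM in dexamethasone lungs, 16.6 to 26.3 CPM in desisobutyryl ciclesonide lungs, and 16.9, 16.6, 17.7 and 21.3 CPM in vehicle lungs. It was nearly without reads in liver, at 0.120, 0, 0, and 0 CPM in vehicle livers and at most 0.171 CPM in any. Vehicle lung over vehicle liver was 634-fold on plain totals (95% exact counting interval 175 to 5243, from 1518 and 2 reads). On the TMM scale the log2 difference was 7.87 ± 0.66 (SE; edgeR adjusted p = 3.34e-10). Both vehicle liver reads came from replicate 1, and without it the fitted value of 10.98 stands against livers at 0 and is no bound. ENSRNOG00000018690 had 12.5, 14.9, 6.82 and 11.4 CPM in dexamethasone lungs, 0.911, 1.90, 0.366 and 0.568 CPM in desisobutyryl ciclesonide lungs, and 0.519, 0.928, 1.56 and 1.08 CPM in vehicle lungs. With 0 reads in vehicle livers and 84 in vehicle lungs, it was at least 23.4-fold higher in vehicle lung on plain totals, against a floor of 3 reads over the group. Less the median shift between the scalings this bound is 9.90-fold on the TMM scale, where edgeR's adjusted p was 0.000124. These 2 members were picked as the highest in lung over liver, and both pass the filter on low counts only through lung. With the 8 vehicle libraries alone ENSRNOG00000018690 did not pass that filter and was not tested. Their p-values describe picked members and support no lean towards lung.

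In the other direction, ENSRNOG00000059579 had 49.0, 60.3, 33.1 and 41.2 CPM in dexamethasone lungs, 6.52, 5.99, 6.52 and 11.7 CPM in desisobutyryl ciclesonide lungs, and 5.19, 5.08, 6.24 and 5.72 CPM in vehicle lungs. Its livers held 155, 108, 145 and 185 CPM with dexamethasone, 103, 203, 128 and 246 CPM with desisobutyryl ciclesonide, and 76.4, 98.6, 106 and 162 CPM with vehicle. Every liver was above every lung, and vehicle lung was below vehicle liver by a log2 difference of -5.56 ± 0.34 (SE; edgeR adjusted p = 2.04e-12). ENSRNOG00000046171 had 32.8, 48.2, 29.5 and 46.9 CPM in dexamethasone lungs, 7.47, 7.67, 8.60 and 13.8 CPM in desisobutyryl ciclesonide lungs, and 2.83, 4.79, 17.5 and 2.95 CPM in vehicle lungs. Its livers held 58.7, 42.7, 92.9 and 77.7 CPM with dexamethasone, 99.3, 116, 104 and 91.5 CPM with desisobutyryl ciclesonide, and 112, 86.2, 34.9 and 68.7 CPM with vehicle. Its tissues overlapped only between the dexamethasone lungs and some livers, and the log2 difference in vehicle pups was -4.67 ± 0.49 (SE; edgeR adjusted p = 2.77e-08), and -5.73 without vehicle lung replicate 3, the library at 17.5 CPM. Both members here were picked as the lowest in lung over liver, so their p-values too describe picked members.

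In pups given desisobutyryl ciclesonide, whose lungs the rule used and whose livers it did not, the same limit holds. Members with few liver reads pass the filter only through lung, so the counts describe the members and support no lean towards lung. There 26 members were higher in lung than in liver, 8 were lower and 6 did not pass, beside 38.5% of all genes higher and 33.4% lower. The median log2 difference was 1.58 for members, 0.11 for all genes and 1.07 for the other lung gains, of which 159 of 289 were higher and 75 lower. The 11 members under 0.5 CPM in all livers had 9 higher and 1 lower, and the other 29 had 17 higher and 7 lower. With the 8 libraries of these pups alone 37 members passed the filter and 25 were higher, where 40.4% of genes were. The same 22 members were higher in lung in both kinds of pup, and 7 were lower in both. How the tissues are scaled matters here: with plain library totals in place of TMM, the lung over liver difference shifts up by a median of 1.24 log2 units over all genes, in vehicle and in desisobutyryl ciclesonide pups alike, and 30 and 31 members are higher, beside 73.4% and 72.1% of all genes. Under TMM, DESeq2's size factors and plain totals alike, 21 members were higher and 5 lower in vehicle pups, and 26 were higher and 4 lower in desisobutyryl ciclesonide pups. The share of all genes called under all of these scalings, or alike in both kinds of pup, was not counted. These counts therefore describe the members only.

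The contrast of drug and vehicle that the rule did not limit was desisobutyryl ciclesonide in liver. The rule did use its vehicle livers, so the contrast is not fully independent of the rule. Of the 40 members, 29 had enough liver reads to be tested, and the 11 that did not are the 11 under 0.5 CPM in all liver groups. By edgeR's quasi-likelihood test with Benjamini-Hochberg adjustment 0 of the 29 passed, where 4.52% of all 13734 genes did, and 7 had an unadjusted p under 0.05 (4 higher and 3 lower), where 21.0% of all genes did. The log2 changes ran from -1.04 to 1.20 with a median of -0.02, 14 above and 15 below 0, beside a median of -0.01 over all genes. Among the 240 other lung gains tested, 18 were higher and 5 lower (9.58%), with a median of 0.22. The difference between the sets was not tested.

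DESeq2 called 2 of the 29 higher, where it called 8.67% of all genes in either direction, and these 2 were named after their values were seen. ENSRNOG00000066042 had 1.27, 1.78, 1.75 and 1.68 CPM in desisobutyryl ciclesonide livers and 0.718, 0.854, 0.613 and 0.748 CPM in vehicle livers, which did not overlap. Its log2 change was 1.20 ± 0.35 (SE), with an adjusted p of 0.0636 by edgeR and 0.0211 by DESeq2. ENSRNOG00000006330 had 1.91, 1.78, 3.04 and 2.29 CPM in desisobutyryl ciclesonide livers and 1.20, 1.14, 0.835 and 1.27 CPM in vehicle livers, also without overlap. Its log2 change was 1.09 ± 0.31 (SE), with an adjusted p of 0.0636 by edgeR and 0.0173 by DESeq2. With edgeR on the 8 libraries compared alone, ENSRNOG00000066042 was called (adjusted p = 0.0428), where 5.80% of all genes were. In dexamethasone livers both lay nearer to vehicle, at 0.909, 0.432, 1.41 and 1.13 CPM for the first and 1.04, 1.51, 1.03 and 1.48 CPM for the second, a nearness the rule had set. The lowest estimate, -1.04, belonged to the member ranked 30, at 0.232, 0.518, 0.701 and 0.267 CPM in desisobutyryl ciclesonide livers and 0.897, 1.02, 1.00 and 0.690 CPM in vehicle livers.

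The 95% intervals of these liver changes reached 0.29 to 1.87 log2 units to either side of the estimate, with a median of 0.67. For 13 of the 29 the interval lay within 1 log2 unit on either side of 0, for 16 it reached past a doubling or a halving, and for 3 it reached a 3-fold gain.

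**Figure D5:**
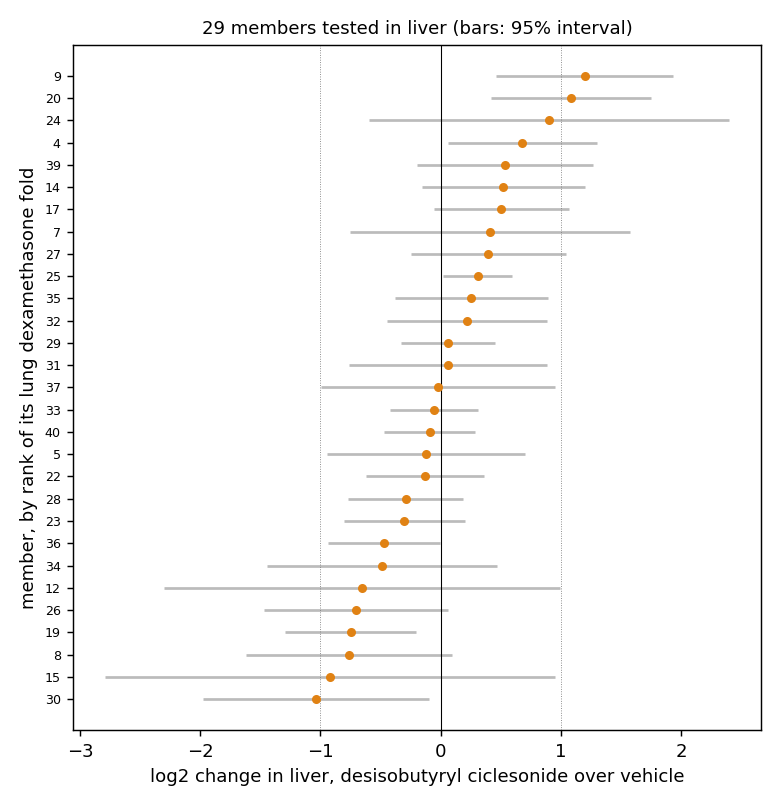
Log2 change in liver, desisobutyryl ciclesonide over vehicle, for the 29 members tested, with rows labelled by rank of lung dexamethasone fold, bars for the 95% interval and dotted lines at 1 log2 unit on either side of 0. The estimates run from -1.04 to 1.20, 14 above 0 and 15 below, and 16 bars cross a dotted line.

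The same edgeR fit gave 3 of the 29 as higher with dexamethasone in liver, where 22.5% of all genes were higher, with a median log2 change of 0.45 for members on the TMM scale against -0.02 for all genes. The 3 were the members ranked 14, 29 and 33. The member ranked 33 had 24.6, 39.1, 27.03 and 28.5 CPM in dexamethasone livers and 19.5, 20.8, 17.0 and 24.3 CPM in vehicle livers, with all dexamethasone livers above all vehicle livers. On the plain CPM of the rule its fold was 1.45, the highest of the 40. Of the 240 other lung gains tested in liver, 152 were higher and 33 lower. The band was set on plain CPM plus 0.5 and not on this scale, on which the log2 changes of members ran from -0.31 to 1.31 and 10 of the 29 lay above 1.5-fold. The rule used these libraries, so the values are a description.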

How the data were processed

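RNA was extracted with Trizol and made into directional poly(A) libraries, per the labels' protocols. Reads were trimmed, aligned and counted with tools that the submitters' processing notes list as cutadapt, HISAT2 and HTSeq, with mRatBN7.2 as genome build. Their settings, including strand, are not given in the sources used here. The deposited files hold raw counts per gene made by the authors, for 30560 identifiers and 5 summary rows per library. The summary rows (16.8% to 31.8% of each library) were left out of library totals and tests, and 24 libraries in 6 groups of 4 were used.

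CPM, folds and the choice of members were computed in Python 3.11.15. The members and lists were chosen with earlier results of these data known. Tests used edgeR 4.0.16 in R 4.3.3 (quasi-likelihood F-test with robust fit, TMM, filterByExpr, Benjamini-Hochberg over all genes tested, adjusted p under 0.05) on the 12 libraries of a tissue, or on all 24 for lung against liver. An SE is the absolute log2 change over the root of F, and 95% intervals use the t quantile of edgeR's degrees of freedom. Alternatives were DESeq2 1.42.0, its size factors, plain totals, no filter, the 8 libraries compared, a replicate block and leaving out each library. The fits were tested on simulated data.

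Lung and liver of the same treatment and number were taken as 1 pup only in the replicate block for lung against liver. The main tests of lung against liver were not paired and ignore this. Deviations from the group mean of such lungs and livers correlated in all 12 pairs (r 0.115 to 0.316, highest for the own number in 12 of 12). Samples of different treatments were not paired by number in the main tests. All 40 members may be named by the rule fixed for named genes; those shown in full are the highest by fold, the highest and lowest in lung over liver, and a few said to be picked by their values. The 47 gene lists were not run for lack of symbols.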

Additional observations from a re-analysis of the deposited data

Results flagged for a closer look

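Dixon's test for 1 value far from the other 3 was applied to 60 groups of 4 values and marked 7. For normally spread values chance marks about 1 in 20. A group with 1 value above 0 and the other 3 at 0 is always marked. Such are the marked liver groups of ENSRNOG00000018690, ENSRNOG00000004470 and ENSRNOG00000025994, so the 7 cannot be set against that rate. For ENSRNOG00000059579, desisobutyryl ciclesonide lung replicate 4 had 11.7 CPM while the others had 5.99 to 6.52 CPM. For ENSRNOG00000046171, vehicle lung replicate 3 had 17.5 CPM while the others had 2.83 to 4.79 CPM. This value enters the fold in replicates 3 and 4, which was 3.60, against 9.51 in replicates 1 and 2. Without it the log2 difference of vehicle lung over vehicle liver was -5.73, against -4.67 with it.

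The other 5 marks concern liver values of a few reads. ENSRNOG00000018690 had reads in 1 dexamethasone liver (0.113 CPM) and in 1 desisobutyryl ciclesonide liver (0.0764 CPM). ENSRNOG00000004470 had 0.0382 CPM in 1 desisobutyryl ciclesonide liver. ENSRNOG00000018656 was lower in desisobutyryl ciclesonide liver replicate 4 (0.0764 CPM) than in the others, and ENSRNOG00000025994 had 0.120 CPM in 1 vehicle liver and 0 in the other 3.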

How the results depend on the processing

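The number of members followed the limits of the rule. It was 78 with a limit of 2 CPM, 47 (34 shared with the 40) with a pseudocount of 1, and 32 (26 shared) on TMM-scaled CPM. With lung replicates 1 and 2 alone, chosen after seeing the data, it was 92 (30 shared). With the vehicle mean of all 4 libraries for both replicate pairs, also added later, it was 40 (36 shared). Leaving out 1 library at a time gave 27 (without dexamethasone lung replicate 4) to 53 members (without desisobutyryl ciclesonide lung replicate 4).

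In liver, members called with desisobutyryl ciclesonide against vehicle were 0 in the main test, 2 with DESeq2 and 1 (ENSRNOG00000066042, adjusted p = 0.0428) with edgeR on the 8 libraries alone, where 5.80% of genes were called. The count was 0 to 0 when leaving out each library, where 295 of 13918 to 482 of 13947 genes were called. At so small a share a count of 0 is no result about the members. Over all alternatives the edgeR or DESeq2 adjusted p ran from 0.0211 to 0.151 for ENSRNOG00000066042 and from 0.0173 to 0.170 for ENSRNOG00000006330. Members higher in lung than liver numbered 19 to 22 in vehicle pups and 26 to 26 in desisobutyryl ciclesonide pups when leaving out each library. Over all genes tested in these fits, 5877 to 6408 and 6146 to 6274 were higher in lung. Genes changed in dexamethasone lung numbered 8961, and 8122 to 8907 when leaving out each library.

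With the replicate block the counts were 0 members in liver, 22 and 26 members higher in lung, and 8932 genes in dexamethasone lung. Over all genes, 442 of 13734 were called in liver, and 6727 and 6445 of 16477 were higher in lung. For lung against liver this block pairs the tissues of 1 pup, which the main tests do not. With it the edgeR adjusted p in vehicle pups was 7.59e-09 for ENSRNOG00000025994 and 0.000657 for ENSRNOG00000018690. It was 5.34e-11 for ENSRNOG00000059579 and 4.78e-06 for ENSRNOG00000046171. Same-numbered samples of different treatments correlated at 0.00349 to 0.107 in liver and -0.26 to 0.344 in lung. The own number gave the highest value in 2 of 4 pairs in liver and in 3 of 4 in lung. Whether a number stands for something shared between treatments is therefore not settled. Alternatives were run for 6 named members in 1 contrast each: the 2 above in liver, and the 4 named for lung against liver in vehicle pups. ENSRNOG00000018690 has no value with the 8 vehicle libraries alone, where it did not pass the filter on low counts. None of the 6 changed direction; 80 of their values also stayed on the same side of the threshold and 3 crossed it, all for the 2 above. Depth limits the 11 members with few liver reads.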
